A study of Homo sapiens with 12 samples.

Results

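Noncoding snoRNA host genes are long noncoding RNA genes whose introns carry small nucleolar RNAs. They were taken here as the genes whose symbol is SNHG followed by a number, together with GAS5, ZFAS1, DANCR and CYTOR. The rule matched 32 genes, of which 29 averaged at least 1 count per library and were tested among 22756 genes that passed the same filter. SNHG32 averaged 0.417 counts per library, and SNHG27 and SNHG28 had 0 counts, so these 3 members were not tested.

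When a host transcript is spliced, the snoRNA is trimmed out of the removed intron and packed with proteins, and the joined exons are left as a separate RNA. Box C/D snoRNAs guide ribose methylation and box H/ACA snoRNAs guide pseudouridine formation, mostly in ribosomal RNA, whereas scaRNAs guide the same changes in spliceosomal RNAs. Several host transcripts begin with a pyrimidine tract like that of ribosomal protein mRNAs (a 5′ terminal oligopyrimidine tract, or TOP), whose translation follows mTOR, and the spliced exons of some, GAS5 among them, are removed by nonsense-mediated decay when they are translated.

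The cells were 12Z, an immortalized line from human endometriosis described as epithelial, and all 12 libraries came from cells given non-targeting siRNA. The 4 groups of 3 libraries were PIK3CA H1047R plasmid with insulin, PIK3CA H1047R plasmid with vehicle, empty pBabe vector with insulin (control cells with insulin) and empty pBabe vector with vehicle (control cells with vehicle). H1047R is an activating mutation of the catalytic subunit of PI3-kinase. It was expressed transiently from a plasmid in cells that keep their own PIK3CA, and after 4 h without serum the cells received 100 nM insulin or vehicle for 24 h. The comparisons ask what insulin does in each kind of cell, what H1047R does with and without insulin, and whether the insulin effect differs between the 2 kinds of cell. In bulk libraries such as these, a change per cell and a change in the mix of cells cannot be told apart.

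Each library held 30071951 to 37918025 gene counts in H1047R cells with insulin and 21483124 to 29255708 in the other groups, without overlap. PIK3CA was measured at 734, 714 and 715 CPM (the count scaled to a fixed library total) in H1047R cells with insulin, 312, 180.1 and 215 CPM in H1047R cells with vehicle, 81.1, 85.9 and 80.9 CPM in control cells with insulin and 89.0, 88.2 and 88.7 CPM in control cells with vehicle. Reads of the plasmid and of the cells' own gene were counted together. In H1047R cells PIK3CA was higher with insulin by 1.62 ± 0.084 on the log2 scale (edgeR, adjusted p = 5.33e-19). An effect of insulin in H1047R cells therefore cannot be told apart here from one of the PIK3CA level. Of the 7 epithelial markers, keratins KRT8, KRT18 and KRT19 were abundant, while EPCAM did not exceed 1.06 CPM and CDH1 did not exceed 2.38 CPM in any library. The epithelial markers summed to 3272 to 3290 CPM in H1047R cells with insulin and 2909 to 3247 CPM in the other groups. The summed stromal or mesenchymal markers stood at 4687 to 4870 CPM in H1047R cells with insulin and 5574 to 5890 CPM in the other groups. Under insulin in H1047R cells 6 of these 7 were lower, while VIM was higher, at 2251 to 2348 CPM against 1966 to 2186 CPM with vehicle. The 4 leukocyte markers summed to 4.72 to 4.95 CPM in H1047R cells with insulin and 3.82 to 6.52 CPM in the other groups, with CD14 as the most abundant and CD3E at 0 in all libraries. The 3 endothelial markers summed to 4.92 to 5.23 CPM in H1047R cells with insulin and 2.62 to 4.59 CPM in the other groups. Of these, VWF was higher with insulin in H1047R cells, by 0.92 ± 0.161 on the log2 scale (adjusted p = 1.12e-05). CDH5 went the other way in H1047R cells, at 0.588, 0.715 and 0.622 CPM with insulin against 1.85, 1.05 and 1.04 CPM with vehicle. PECAM1 stood at 0.523, 0.440 and 0.389 CPM against 0.21, 0.039 and 0 CPM. Reads placed at several sites made up 8.48 to 9.51% of input in H1047R cells with insulin and 13.6 to 15.4% in the other libraries. The part of the library depth, of the marker shift and of the multiply placed reads in the results below was not tested.

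Of the 29 tested members, 28 contain at least 1 snoRNA or scaRNA annotated in RefSeq. The search covered the outer limits of the GENCODE and RefSeq spans of each member and did not require the same strand. Box C/D snoRNAs alone were found in 11 members, box H/ACA snoRNAs alone in 10, both kinds in 3 and a scaRNA alone in 4. SNHG14, the long imprinted transcript of the Prader-Willi region, spans 83 box C/D snoRNAs, GAS5 spans 10 with 1 H/ACA snoRNA, and SNHG1 spans 8. No annotated snoRNA lies within CYTOR. The levels of the snoRNAs themselves cannot be read from these counts. GENCODE places 144 snoRNA and scaRNA rows on the same strand inside the 32 genes matched by the rule, those not tested included. Of these rows 85 overlap an exon of their host, where read pairs that fit both are dropped, and 83 of these 85 held no read. The other 59 held 591 reads over the 12 libraries, in 13 rows.

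The bases around the annotated starts are shown because a pyrimidine tract at the start of the RNA is what marks TOP mRNAs. Each window runs from 20 bases before to 40 bases from the RefSeq start (GRCh38.p14), so that the annotated start is the twenty-first base, and capitals mark every run of a C followed by at least 4 pyrimidines. These starts need not be those of the counted RNAs, since the RefSeq start lies at −154975 bases from the GENCODE start for SNHG14 and at −163 bases for GAS5 (upstream of the annotated span), and at 1259 bases, inside the span, for SNHG12. SNHG15 was called higher in both of the contrasts named next, but it had no RefSeq promoter entry and so has no window. The first 7 windows belong to the other members called higher with insulin in H1047R cells or with H1047R under insulin.
SNHG12, minus strand of chr1:28581834-28581893: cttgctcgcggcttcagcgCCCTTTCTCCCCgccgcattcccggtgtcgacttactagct
SNHG17, minus strand of chr20:38435289-38435348: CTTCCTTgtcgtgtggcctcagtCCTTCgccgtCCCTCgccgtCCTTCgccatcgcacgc
SNHG8, plus strand of chr4:118278742-118278801: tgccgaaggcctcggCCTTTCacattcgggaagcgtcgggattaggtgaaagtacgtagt
GAS5, minus strand of chr1:173869006-173869065: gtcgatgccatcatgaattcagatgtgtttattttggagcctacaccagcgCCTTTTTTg
ZFAS1, plus strand of chr20:49278622-49278681: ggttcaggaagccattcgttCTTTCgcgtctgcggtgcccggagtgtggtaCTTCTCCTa
SNHG7, minus strand of chr9:136728145-136728204: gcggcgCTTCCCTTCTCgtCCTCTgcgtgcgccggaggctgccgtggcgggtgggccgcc
SNHG1, minus strand of chr11:62855846-62855905: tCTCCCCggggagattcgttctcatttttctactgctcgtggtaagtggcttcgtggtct

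The next 6 windows belong to members called lower in the same contrasts.
DANCR, plus strand of chr4:52712374-52712433: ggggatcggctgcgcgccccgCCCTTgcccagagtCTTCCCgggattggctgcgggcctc
SNHG18, plus strand of chr5:9546180-9546239: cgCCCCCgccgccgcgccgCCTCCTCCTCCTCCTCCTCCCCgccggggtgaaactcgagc
SNHG14, plus strand of chr15:24823588-24823647: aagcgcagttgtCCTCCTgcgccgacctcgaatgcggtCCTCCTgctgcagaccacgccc
SNHG29, plus strand of chr17:16438967-16439026: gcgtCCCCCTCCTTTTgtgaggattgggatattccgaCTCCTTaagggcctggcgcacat
SNHG5, minus strand of chr6:85678694-85678753: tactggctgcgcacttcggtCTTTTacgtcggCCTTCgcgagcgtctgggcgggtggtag
SNHG16, plus strand of chr17:76557744-76557803: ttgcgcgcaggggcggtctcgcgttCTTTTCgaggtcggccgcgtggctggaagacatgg

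Of the 29 members, 25 had an entry in the RefSeq promoter table. A TOP start, taken as a C at the annotated start itself followed by at least 4 pyrimidines, was found in 6 of the 25 (24.0%): SNHG12, SNHG18, SNHG19, SNHG4, SNHG5 and ZFAS1. The same was found in 1429 of all 35116 promoters of the table (4.07%) and in 17 of 37 protein-coding snoRNA hosts (45.95%). Members called higher held it in 2 of 7 entries and members called lower in 2 of 6. A looser search, chosen after the windows were seen, was for a run beginning within 10 bases of the start. Such a run was present in 5 of the 7 members called higher that had an entry (SNHG15 had none). It was also present in 5 of 6 called lower (SNHG29 being the exception) and 31.42% of all promoters. In the 300 bases around the start (250 before to 50 after), searched on both strands, the E-box CACGTG was found in SNHG30 and SNHG7 (8.0% of members against 7.26% of all promoters) and the interferon element GAAANNGAA in SNHG16 and SNHG31 (8.0% against 8.11%). The CRE TGACGTCA and the ATF4 element TGATGCAA were found in 0 of 25 members, against 1.85% and 0.87% of all promoters. A match to these letters is a description and not a mapped binding site.

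Insulin changed 11 members in H1047R cells, and these split between the directions. At an FDR below 0.001 (edgeR's quasi-likelihood test), 6 of 29 were higher, against 9.85% of all genes tested, and 5 were lower, against 9.8% of all genes. SNHG12, SNHG15, SNHG17, SNHG8, SNHG1 and GAS5 were higher, and SNHG29, DANCR, SNHG16, SNHG14 and SNHG18 were lower. The median log2 fold change of the 29 members was 0.03, and that of all genes tested was −0.00061. DESeq2 called 7 higher and 4 lower. With a filter of 1 CPM in 3 libraries, edgeR called 6 of 26 members higher and 5 lower. Of all 13726 genes kept by that filter, 2143 were higher and 2211 lower, larger shares than 9.85% and 9.8%. That filter also raised the all-gene shares with H1047R under insulin and for the difference between the insulin effects. With H1047R under insulin, 2533 of the 13726 genes were higher and 2626 lower, beside 8 and 5 of 26 members. For the difference between the insulin effects, 992 genes were higher and 970 lower, beside 4 and 1 of 26 members. The shares of all genes printed for these contrasts further below come from the wider set of 22756 genes.

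**Figure D1:**
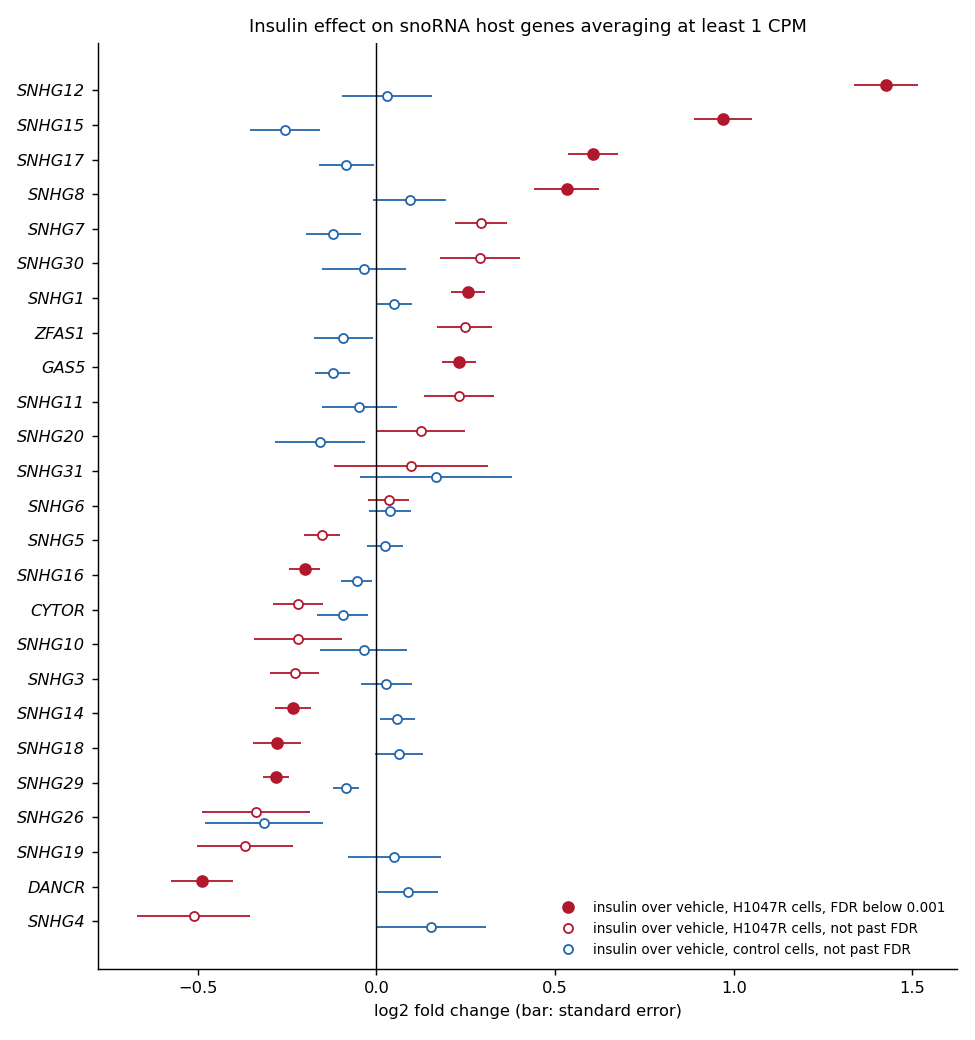
Log2 fold change with insulin over vehicle (x axis, bars are standard errors from edgeR) for the 25 members averaging at least 1 CPM (y axis), in H1047R cells (red) and control cells (blue); filled points passed an FDR of 0.001. Red filled points stand on both sides of 0, from 1.43 for SNHG12 to −0.49 for DANCR, and no blue point is filled.

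SNHG12, on the minus strand of chr1:28578538-28583132, carries 3 box H/ACA snoRNAs (SNORA16A, SNORA44 and SNORA61) and the box C/D snoRNA SNORD99, and showed the largest change of any member called. It was measured at 21.2, 22.5 and 21.9 CPM in H1047R cells with insulin, 9.64, 6.66 and 8.20 CPM in H1047R cells with vehicle, 4.70, 4.92 and 4.81 CPM in control cells with insulin and 5.41, 4.43 and 4.25 CPM in control cells with vehicle. The 3 libraries with both H1047R and insulin stood above all others, the H1047R vehicle libraries came next without overlap, and the control groups overlapped each other. With insulin in H1047R cells the log2 fold change was 1.43 ± 0.090 (SE; adjusted p = 2.10e-16), and between H1047R and control cells under insulin it was 2.19 ± 0.096 (adjusted p = 1.27e-21). TRNAU1AP, which overlaps SNHG12 on the opposite strand, moved the other way with insulin in H1047R cells, by −0.29 ± 0.064 on the log2 scale (adjusted p = 0.00032), and 1.27% of the stranded reads at SNHG12 lay on the opposite strand.

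SNHG12 was also the only member called with H1047R in vehicle, at 0.79 ± 0.117 on the log2 scale (adjusted p = 7.56e-05). The counts called were 1 of 29 higher, against 0.141% of all genes, and 0 of 29 lower, against 0.0176% of all genes. In edgeR, 4 members were higher and 0 lower at an unadjusted p under 0.05, against 5.4975% and 6.43% of all genes, and DESeq2 called 1 higher and 0 lower. The H1047R vehicle library with the most PIK3CA (312 CPM) was also the highest of its group in SNHG12 (9.64 CPM) and SNHG15 (16.5 CPM), and its part in the result was not tested beyond leaving it out. Without that library the SNHG12 difference was 0.65 (adjusted p = 0.0014), without control vehicle replicate 2 it was 0.74 (adjusted p = 0.0027) and without control vehicle replicate 3 it was 0.73 (adjusted p = 0.0018), each above the FDR threshold and so not called, as was also true at 0.79 when genes under 1 CPM were left out (adjusted p = 0.0013).

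SNHG15, on the minus strand of chr7:44983019-44986961, carries SNORA9 and is known as a short-lived RNA that accumulates under several stresses. It stood at 26.1, 27.2 and 26.8 CPM in H1047R cells with insulin, 16.5, 12.3 and 12.1 CPM in H1047R cells with vehicle, 9.51, 8.73 and 10.4 CPM in control cells with insulin and 10.9, 10.99 and 12.4 CPM in control cells with vehicle. The libraries with both H1047R and insulin again stood clear of all others. Insulin raised it by 0.97 ± 0.082 on the log2 scale in H1047R cells (adjusted p = 8.64e-13). In control cells the log2 difference was −0.26 ± 0.098 (adjusted p = 0.14), which did not pass, although the insulin and vehicle libraries did not overlap.

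SNHG17, on the minus strand of chr20:38419638-38435409, carries 4 copies of the SNORA71 family. It was measured at 26.5, 27.9 and 28.1 CPM in H1047R cells with insulin, 19.3, 18.2 and 16.8 CPM in H1047R cells with vehicle, 14.9, 16.3 and 16.4 CPM in control cells with insulin and 18.7, 15.2 and 16.5 CPM in control cells with vehicle. The H1047R insulin libraries stood above all others. The H1047R vehicle libraries overlapped the control vehicle libraries and lay above the control insulin libraries. Insulin raised it by 0.61 ± 0.070 on the log2 scale in H1047R cells (adjusted p = 2.37e-09). Its neighbour SNHG11, on the opposite strand and also a host of the SNORA71 family, stood at 7.19, 8.44 and 7.75 CPM in H1047R cells with insulin and 6.65, 6.89 and 6.42 CPM in H1047R cells with vehicle, a log2 difference of 0.23 ± 0.098 (adjusted p = 0.066).

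SNHG8, on the plus strand of chr4:118278703-118285316, carries SNORA24. It stood at 16.5, 18.1 and 16.3 CPM in H1047R cells with insulin, 13.4, 11.6 and 10.2 CPM in H1047R cells with vehicle, 9.69, 11.7 and 10.0 CPM in control cells with insulin and 10.6, 10.6 and 8.08 CPM in control cells with vehicle. The H1047R insulin libraries were the highest and the other groups overlapped. Insulin raised it by 0.53 ± 0.091 on the log2 scale in H1047R cells (adjusted p = 7.55e-06). Opposite-strand reads made up 32.3% at SNHG8, where PRSS12 overlaps it, and the counts used here are of its own strand.

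**Figure D2:**
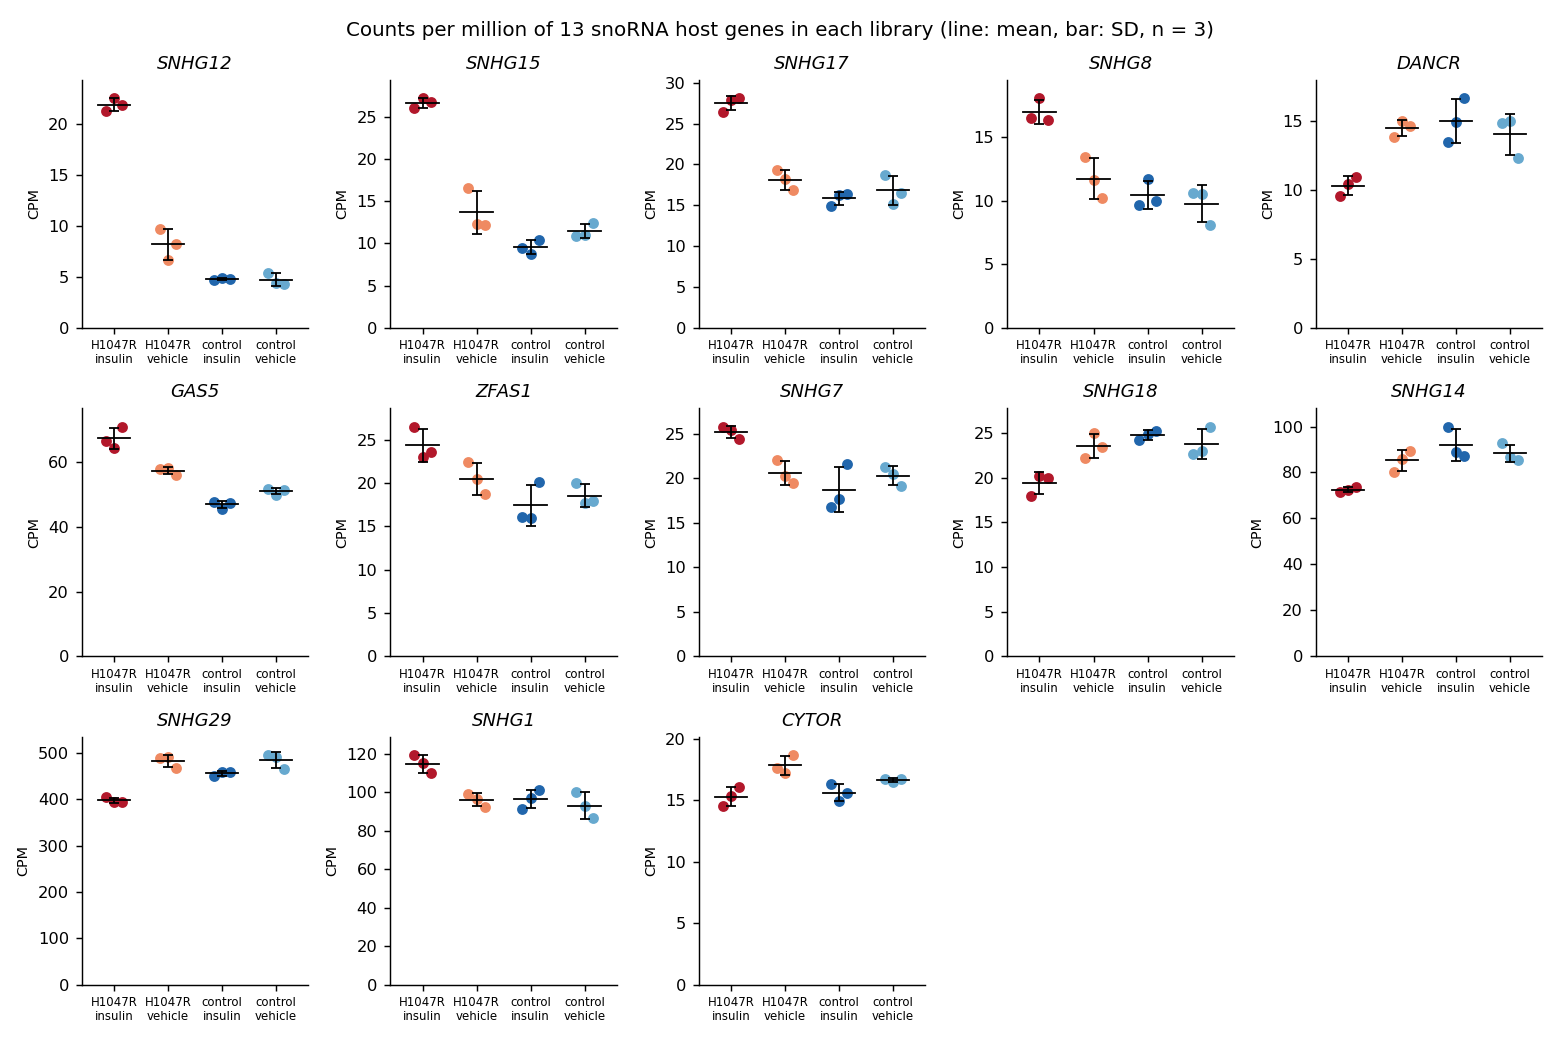
Scaled counts in CPM (y axis, from 0) of 13 members in each library of the 4 groups (x axis); points are libraries, lines are means and bars are SD (n = 3). SNHG12 stands at 21.2 to 22.5 CPM in H1047R cells with insulin and at most 9.64 CPM elsewhere, while DANCR stands at 9.54 to 10.9 CPM there and at least 12.3 CPM elsewhere.

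GAS5, on the minus strand of chr1:173858559-173868882, is named for its rise in growth-arrested cells, and its spliced RNA is known to bind the glucocorticoid receptor. It was measured at 66.7, 64.5 and 71.1 CPM in H1047R cells with insulin, 57.9, 58.2 and 56.2 CPM in H1047R cells with vehicle, 47.7, 45.7 and 47.6 CPM in control cells with insulin and 51.9, 50.01 and 51.6 CPM in control cells with vehicle. No groups overlapped. Within H1047R cells the insulin libraries were the higher ones, and within control cells they were the lower ones. In H1047R cells insulin raised GAS5 by 0.23 ± 0.047 on the log2 scale (adjusted p = 0.00011), a call lost without H1047R vehicle replicate 3 (0.22, adjusted p = 0.0011), without H1047R insulin replicate 3 (0.19, adjusted p = 0.0043) and when strand was ignored (0.20, adjusted p = 0.0011). In control cells the difference was −0.12 ± 0.050 (adjusted p = 0.17). With H1047R under insulin GAS5 was higher by 0.52 ± 0.048 (adjusted p = 5.32e-12).

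SNHG1, on the minus strand of chr11:62851978-62855953, is the classic host whose exons code for no protein and whose introns hold SNORD22 and SNORD25 to SNORD31. It stood at 119, 115 and 109.9 CPM in H1047R cells with insulin, 99.4, 96.4 and 92.6 CPM in H1047R cells with vehicle, 91.6, 97.0 and 101 CPM in control cells with insulin and 100.3, 92.8 and 86.5 CPM in control cells with vehicle. Again the libraries with both were highest and the others overlapped. The insulin effect in H1047R cells was small, at 0.26 ± 0.048 on the log2 scale (adjusted p = 3.64e-05), or 1.19-fold.

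ZFAS1, on the plus strand of chr20:49278178-49299600, starts beside ZNFX1, runs the opposite way and carries the SNORD12 family. It was measured at 26.5, 23.0 and 23.6 CPM in H1047R cells with insulin, 22.4, 20.4 and 18.7 CPM in H1047R cells with vehicle, 16.1, 15.98 and 20.2 CPM in control cells with insulin and 20.025, 17.6 and 17.9 CPM in control cells with vehicle. The insulin libraries of H1047R cells stood above the others, although the log2 difference of 0.25 ± 0.077 from vehicle did not pass (adjusted p = 0.010). It passed without H1047R vehicle replicate 1 (0.34, adjusted p = 0.00032) and with no filter on low counts (0.28, adjusted p = 0.00054). With H1047R under insulin ZFAS1 was higher by 0.48 ± 0.078 (adjusted p = 1.94e-06).

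SNHG7, on the minus strand of chr9:136721366-136728184, carries SNORA17A and SNORA17B. It stood at 25.8, 25.4 and 24.4 CPM in H1047R cells with insulin, 22.1, 20.2 and 19.4 CPM in H1047R cells with vehicle, 16.8, 17.7 and 21.6 CPM in control cells with insulin and 21.2, 20.5 and 19.1 CPM in control cells with vehicle. The H1047R insulin libraries did not overlap the others. Opposite-strand reads made up 18.8% of the stranded reads at SNHG7, where DIPK1B overlaps it, and the counts used here are of its own strand. The insulin effect in H1047R cells, 0.29 ± 0.072 on the log2 scale, lay just outside the threshold (adjusted p = 0.0011). It passed with DESeq2 (0.30, adjusted p = 0.00093), with median-of-ratios scaling (0.30, adjusted p = 0.00059), with library totals (0.33, adjusted p = 0.00028), with no filter on low counts (0.32, adjusted p = 2.81e-05), in the fit of the 2 groups alone (0.29, adjusted p = 0.00054) and without control insulin replicate 1 (0.29, adjusted p = 0.00072), control insulin replicate 3 (0.29, adjusted p = 0.00033) or H1047R vehicle replicate 1 (0.37, adjusted p = 4.50e-05).

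DANCR fell the most of the members called lower. It lies on the plus strand of chr4:52712325-52723623, carries SNORA26, and is known for keeping epidermal progenitors undifferentiated. LINC01618 overlaps its exons on the same strand, so its counts are uncertain. It was measured at 9.54, 10.4 and 10.9 CPM in H1047R cells with insulin, 13.8, 14.995 and 14.6 CPM in H1047R cells with vehicle, 13.4, 14.9 and 16.6 CPM in control cells with insulin and 14.8, 14.96 and 12.3 CPM in control cells with vehicle. The H1047R insulin libraries lay below all others, which overlapped. With insulin in H1047R cells its log2 fold change was −0.49 ± 0.086 (adjusted p = 1.24e-05).

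SNHG29 was the most abundant member. It lies on the plus strand of chr17:16438767-16480249 and carries SNORD49A, SNORD49B and SNORD65. It stood at 404, 395 and 394 CPM in H1047R cells with insulin, 489, 492 and 468 CPM in H1047R cells with vehicle, 451, 458 and 460.1 CPM in control cells with insulin and 496, 492 and 465 CPM in control cells with vehicle. With insulin in H1047R cells it fell by 0.28 on the log2 scale (SE 0.036, adjusted p = 3.13e-08), and in control cells the difference was −0.09 ± 0.036 (adjusted p = 0.20), although the libraries did not overlap there either.

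SNHG18, on the plus strand of chr5:9546170-9550725, carries SNORD123. It was measured at 18.0, 20.3 and 20.02 CPM in H1047R cells with insulin, 22.3, 25.04 and 23.5 CPM in H1047R cells with vehicle, 24.2, 24.96 and 25.3 CPM in control cells with insulin and 22.7, 23.1 and 25.8 CPM in control cells with vehicle. The H1047R insulin libraries were the lowest. The insulin effect in H1047R cells, −0.28 ± 0.066 on the log2 scale, was just inside the threshold (adjusted p = 0.0008) and was lost under 11 of the 20 alternatives. These included DESeq2 (−0.27, adjusted p = 0.0015), and leaving out each of H1047R insulin replicates 1 (−0.23, adjusted p = 0.013), 2 (−0.31, adjusted p = 0.0013) and 3 (−0.30, adjusted p = 0.0020), H1047R vehicle replicates 2 (−0.23, adjusted p = 0.015) and 3 (−0.28, adjusted p = 0.0025) and control insulin replicate 2 (−0.28, adjusted p = 0.0012).

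SNHG14, whose gene runs through the Prader-Willi region on chr15:24978583-25420336 in GENCODE and whose distal part is antisense to UBE3A in neurons, stood at 71.6, 72.2 and 73.6 CPM in H1047R cells with insulin, 80.4, 86.0 and 89.4 CPM in H1047R cells with vehicle, 100.0, 88.9 and 87.1 CPM in control cells with insulin and 92.7, 86.5 and 85.6 CPM in control cells with vehicle. The H1047R insulin libraries were the lowest, and the others overlapped. The insulin effect in H1047R cells was −0.23 ± 0.050 on the log2 scale (adjusted p = 0.0002). It was lost with library totals (−0.20, adjusted p = 0.0011) and without H1047R vehicle replicate 2 (−0.23, adjusted p = 0.0015) or 3 (−0.20, adjusted p = 0.0033) or H1047R insulin replicate 1 (−0.23, adjusted p = 0.0017) or 2 (−0.23, adjusted p = 0.0015). Reads on the opposite strand made up 20.5% at SNHG14, and SNRPN overlaps its exons on the same strand, so its counts are uncertain.

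SNHG16, the host of SNORD1A, SNORD1B and SNORD1C, was 88.7 ± 1.09 CPM in H1047R cells with insulin and 102 ± 3.57 CPM in H1047R cells with vehicle (SD, n = 3 each), a difference of −0.20 ± 0.043 on the log2 scale (adjusted p = 0.00019). The call was lost with library totals (−0.17, adjusted p = 0.0017), with no filter on low counts (−0.17, adjusted p = 0.0015) and without H1047R vehicle replicate 1 (−0.15, adjusted p = 0.0077) or 2 (−0.20, adjusted p = 0.0014) or H1047R insulin replicate 1 (−0.20, adjusted p = 0.0014) or 2 (−0.19, adjusted p = 0.0020). CYTOR, named as a cytoskeleton regulator RNA, stood at 14.5, 15.3 and 16.1 CPM in H1047R cells with insulin, 17.6, 17.2 and 18.7 CPM in H1047R cells with vehicle, 16.3, 14.9 and 15.6 CPM in control cells with insulin and 16.8, 16.5 and 16.8 CPM in control cells with vehicle. Its libraries did not overlap between insulin and vehicle in either kind of cell, yet the log2 differences of −0.22 ± 0.069 in H1047R cells (adjusted p = 0.011) and −0.09 ± 0.072 in control cells (adjusted p = 0.58) did not pass. CYTOR has a close copy, MIR4435-2HG, and reads placed at both are not in these counts.

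In control cells, insulin changed no member at this threshold. The calls were 0 of 29 higher, against 0.483% of all genes tested, and 0 of 29 lower, against 1.15%. At an unadjusted p under 0.05, edgeR gave 0 higher and 3 lower members (SNHG15, GAS5 and SNHG29), against 8.35% of all genes higher and 8.06% lower, and DESeq2 gave 0 called at FDR 0.001 and 0 higher and 3 lower at that unadjusted p. The median log2 fold change of the members was −0.03, and that of all genes was 0.00374.

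Between H1047R and control cells under insulin, 8 of 29 members were higher, against 11.4% of all genes tested, and 5 were lower, against 12%. SNHG12 (2.19), SNHG15 (1.49), SNHG17 (0.80), SNHG8 (0.70), GAS5 (0.52), ZFAS1 (0.48), SNHG7 (0.43) and SNHG1 (0.25) were higher by these log2 values, and DANCR (−0.54), SNHG18 (−0.35), SNHG14 (−0.34), SNHG5 (−0.24) and SNHG29 (−0.20) were lower. Of the 13 called here, 10 were also called with insulin in H1047R cells, and both contrasts use the same H1047R insulin libraries. SNHG5, which carries SNORD50A and SNORD50B, stood at 113, 124 and 122 CPM in H1047R cells with insulin and 139, 139 and 148 CPM in control cells with insulin, without overlap. Its call was lost without control insulin replicate 3 (−0.21, adjusted p = 0.0022) or H1047R insulin replicate 1 (−0.20, adjusted p = 0.0032), as SNHG1's was without control insulin replicate 1 (0.21, adjusted p = 0.0011). Over all 5 contrasts, 14 of 29 members were called at least once and 15 in none, and 6091 of the 22756 genes tested (26.8%) were called at least once.

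The insulin effect itself differed between the kinds of cell for 5 members. It also did for PIK3CA, by 1.72 ± 0.123 on the log2 scale (edgeR, adjusted p = 3.81e-14). In these differences, insulin and the PIK3CA level cannot be told apart. The interaction was higher for 4 of 29, against 4.58% of all genes tested, and lower for 1, against 4.49%. The insulin effect in H1047R cells minus that in control cells was 1.40 ± 0.156 for SNHG12, 1.23 ± 0.128 for SNHG15, 0.69 ± 0.103 for SNHG17 and 0.35 ± 0.069 for GAS5 on the log2 scale. For DANCR it was −0.58 ± 0.121 (adjusted p = 0.00034). The DANCR call was lost without any 1 of 5 libraries, which were control vehicle replicate 3 (−0.50, adjusted p = 0.0022), control insulin replicate 2 (−0.58, adjusted p = 0.0010) or 3 (−0.50, adjusted p = 0.0028), H1047R vehicle replicate 2 (−0.55, adjusted p = 0.0016) and H1047R insulin replicate 1 (−0.53, adjusted p = 0.0020), and that of GAS5 without H1047R insulin replicate 3 (0.31, adjusted p = 0.0013).

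**Figure D3:**
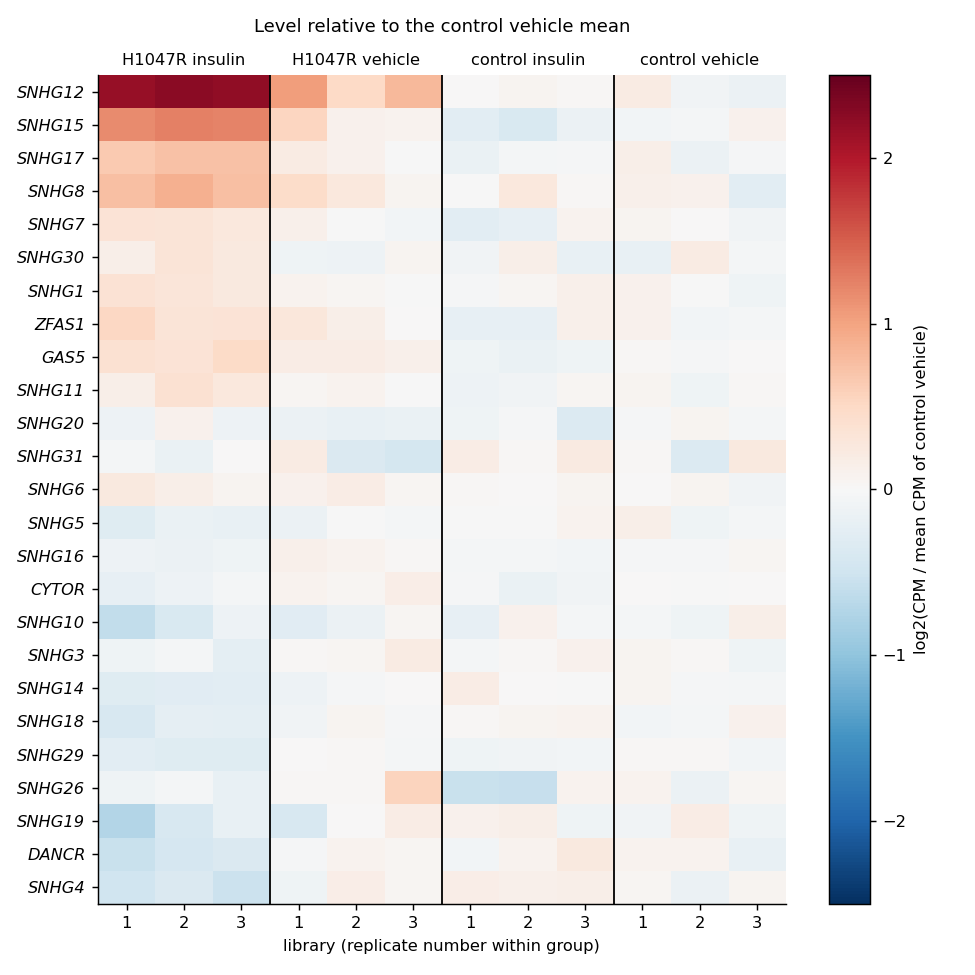
Log2 ratio of CPM to the mean of control cells with vehicle (color) for the 25 members averaging at least 1 CPM (rows) in the 12 libraries (columns, 3 per group). The 3 H1047R insulin columns hold the strongest colors, with SNHG12 and SNHG15 at the top and DANCR and SNHG4 at the bottom.

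The member total changed little while its makeup shifted. The summed CPM of the members was 1140 ± 2.37 in H1047R cells with insulin, 1200 ± 18.4 in H1047R cells with vehicle, 1151 ± 17.0 in control cells with insulin and 1181 ± 40.4 in control cells with vehicle (SD, n = 3 each). SNHG29 made up 34.9 ± 0.518% of member counts in H1047R cells with insulin, 40.2 ± 0.489% in H1047R cells with vehicle, 39.6 ± 0.367% in control cells with insulin and 41.0 ± 0.851% in control cells with vehicle. These summed values and shares were not tested.

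Members also differed widely in level. Per kilobase of annotated exon in control cells with vehicle, SNHG29 stood at 54.1 ± 1.91 CPM, SNHG1 at 23.4 ± 1.75 CPM and SNHG16 at 16.7 ± 0.597 CPM (SD, n = 3), and SNHG12 at 1.10 ± 0.146 CPM. GENCODE annotates 122609 exonic bases for SNHG14, so its per-kilobase level of 0.72 ± 0.032 CPM depends on that annotation. The members not named in full stood between 0.0521 CPM for SNHG22 and 134 CPM for SNHG5, as means over the 12 libraries. SNHG22 was read almost only from the opposite strand (98.4% of its stranded reads), where MYO5B lies. Same-strand exon overlaps make the counts of SNHG3 (RCC1), SNHG4 (MATR3), SNHG20 (SEC14L1), SNHG5 (PKMP3), DANCR (LINC01618), CYTOR (NCAL1) and SNHG21 uncertain as well.

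Several members start back to back with another gene, and the pairs did not share 1 pattern. With insulin in H1047R cells, SLC3A2, the amino acid transporter heavy chain that starts 51 bases from SNHG1, was 292 ± 8.16 CPM against 117 ± 19.6 CPM with vehicle (SD, n = 3 each), a log2 fold change of 1.32 ± 0.059 (adjusted p = 6.30e-21), beside 0.26 for SNHG1. ZNFX1, an antiviral RNA sensor whose start lies 248 bases from that of ZFAS1, was higher by 0.91 ± 0.053 (adjusted p = 1.53e-17), beside 0.25 for ZFAS1, and only 0.633% of the stranded reads at ZFAS1 lay on the ZNFX1 strand. SEMA5A, a semaphorin 95 bases from SNHG18, was lower by −1.30 ± 0.053 on the log2 scale (adjusted p = 2.56e-22), beside −0.28 for SNHG18. ZBTB37, 800 bases from GAS5, had a log2 difference of −0.13 ± 0.098 (adjusted p = 0.34), beside 0.23 for GAS5.

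Protein-coding genes that also host snoRNAs mostly fell. The list of 47 holds many ribosomal protein genes, and 46 of them hold an annotated snoRNA on the same strand. With insulin in H1047R cells 6 were higher and 26 lower, against 9.85% and 9.8% of all genes tested. The median was −0.28 on the log2 scale, against −0.00061 for all genes. RPL23 was 550.3 ± 16.3 CPM against 890.5 ± 77.6 CPM with vehicle (SD, n = 3 each; −0.69 ± 0.047, adjusted p = 1.27e-15), RPL13A was lower by −0.60 ± 0.042 and PPAN, a ribosome biogenesis factor, was higher by 0.65 ± 0.145. The noncoding members, at 6 higher and 5 lower with a median of 0.03, stood apart from that list in these values, a difference that was not tested.

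For each list below, the shares of all genes called in the same contrast were 9.85% higher and 9.8% lower. Those shares, used for the protein-coding hosts as well, include many scarce genes. With the filter of 1 CPM in 3 libraries they were larger, at 2143 higher and 2211 lower of 13726 genes. Of 19 proteins that form or assemble snoRNPs, 6 were higher and 1 lower, with a median of 0.14. NOP56, a core box C/D protein and itself a host, was higher by 0.37 ± 0.046 (adjusted p = 9.87e-09), the assembly factor NUFIP1 by 0.39 ± 0.078 (adjusted p = 7.35e-05), and PIH1D1, a part of the R2TP chaperone complex, was lower by −0.31 ± 0.045 on the log2 scale. Of 18 nonsense-mediated decay factors, 7 were higher and 0 lower, with a median of 0.14. At an unadjusted p under 0.05, 11 were higher and 1 lower, against 20.8% and 20.5% of all genes. UPF3B was higher by 0.53 ± 0.062, DHX34 by 0.52 ± 0.067 and SMG9 by 0.37 ± 0.053. Of 11 regulators that bind TOP mRNAs or the cap, 2 were higher (LARP4, 0.33 ± 0.043; TIAL1, 0.25 ± 0.041) and 1 lower (PABPC1, −0.30 ± 0.038). Of 19 other long noncoding RNAs tested, 2 were higher (H19 by 1.09 ± 0.237 and PVT1 by 0.89 ± 0.080) and 6 lower, MIAT at −0.90 ± 0.154 among them, with a median of −0.19. H19 was scarce, at 2.40 ± 0.302 CPM with insulin and 1.14 ± 0.420 CPM with vehicle in H1047R cells (SD, n = 3 each). In control cells it stood at 2.25 ± 0.655 CPM with insulin and 0.891 ± 0.386 CPM with vehicle, so its mean was higher with insulin there too.

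**Figure D4:**
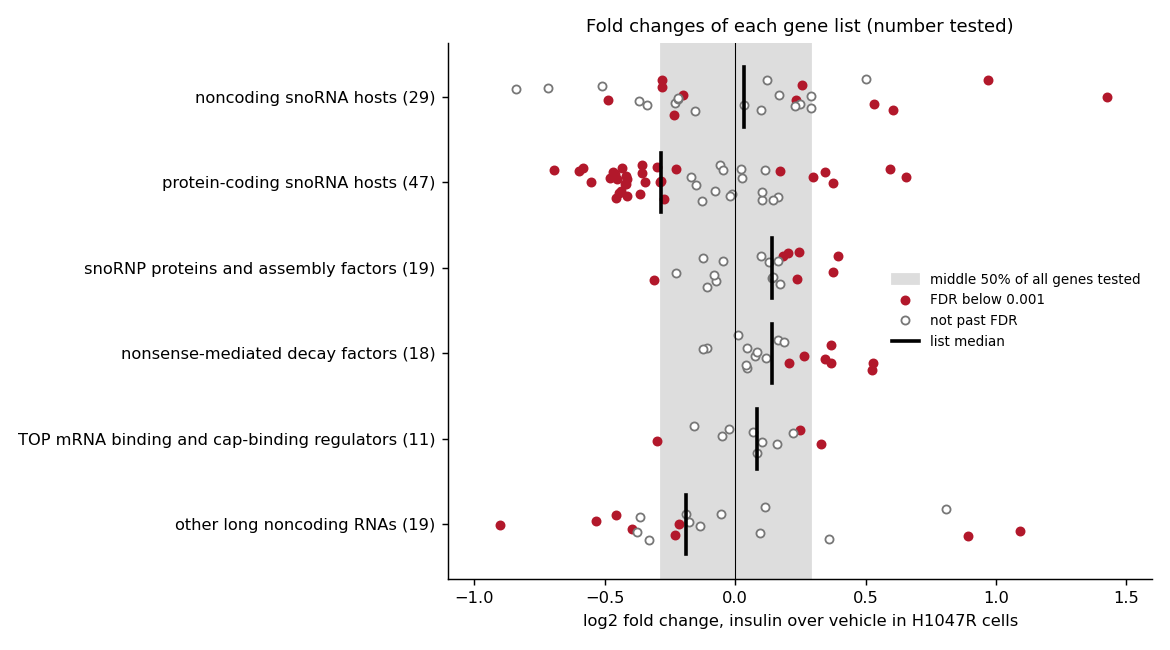
Log2 fold change with insulin over vehicle in H1047R cells (x axis) for the noncoding hosts and 5 gene lists (rows, number tested in brackets); each point is a gene, red if past an FDR of 0.001, black bars are list medians and the grey band holds the middle 50% of all genes tested (−0.28 to 0.29). The median of the noncoding hosts lies at 0.03 and that of the protein-coding hosts at −0.28.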

How the data were processed

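Each of the 4 conditions has 3 libraries, prepared with an mRNA kit, which the methods describe as separate experiments. The sources name cutadapt and Trim Galore for trimming and STAR for alignment to hg38, whose gene counts the authors deposited as raw counts per gene without normalization. STAR counts pairs placed at 1 site and drops pairs that fit 2 genes, so hosts with overlapping genes or close copies are undercounted. No versions of these tools are stated there, and the annotation release named in the methods is a mouse release.

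The reverse-strand counts (column 4) were used, which held 93.5 to 93.7% of stranded gene counts. Of input, unmapped reads were 3.12 to 4.09%, reads in no gene 3.91 to 4.55% and ambiguous reads 3.31 to 3.61%, and these rows stayed out of library sizes. Of 60617 identifiers, 60357 were found in the gene-name table and 42009 had a symbol. Gene spans came from GENCODE v44, and snoRNA content and start sequences from RefSeq (GRCh38.p14).

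Genes with a mean of 1 count or more per library were fitted with edgeR 4.0.16 in R 4.3.3 (TMM scaling, quasi-likelihood test, 1 fit of 12 libraries, 8 residual degrees of freedom), with Benjamini-Hochberg adjustment over all genes and a call at FDR below 0.001. Each standard error is the absolute log2 fold change over the root of the F statistic. CPM values use TMM library sizes. The 20 alternatives included DESeq2 1.42.0, other scaling, filters and strand, a replicate block and leaving out each of the 12 libraries. The code was tested on simulated data. Pairs of replicates differed beyond sampling noise (chi-square per degree of freedom 2.70 to 5.90). Values in each library are given for GAS5, ZFAS1, DANCR, CYTOR and SNHG1 and for up to 12 members called at 1 CPM or more with the largest change; of each list, up to 3 called genes with the largest change are named. The members and lists were chosen with earlier results of these data known.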

Additional observations from a re-analysis of the deposited data

Results flagged for a closer look

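For 5 members the insulin effect differed between H1047R and control cells by a test of the difference itself (edgeR interaction, FDR below 0.001). PIK3CA also had a called interaction, and insulin and the PIK3CA level cannot be told apart. On the log2 scale, the effect in H1047R cells minus that in control cells was 1.40 for SNHG12, 1.23 for SNHG15, 0.69 for SNHG17 and 0.35 for GAS5, and −0.58 for DANCR.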

How the results depend on the processing

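No member changed direction past the threshold under any of the 20 alternatives. Of the values recomputed for the 13 members given in every library, 1238 kept their side of the threshold, 30 lost the call and 19 gained it. With insulin in H1047R cells, 5 members were lower, against 2 with library totals, 3 with no filter on low counts, and 2 to 5 when 1 library was left out. With H1047R in vehicle, 1 member was higher, against 0 with a filter of 1 CPM and 0 to 1 when 1 library was left out. The interaction was lower for 1 member, against 2 with DESeq2, 2 with strand ignored and 0 to 2 when 1 library was left out; the cause was not tested. Calls of insulin in H1047R cells for SNHG12, SNHG15, SNHG17, SNHG29, SNHG8, DANCR and SNHG1 were lost under none.

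Same-numbered libraries did not deviate together (correlations −0.0200 to 0.0323, 0 of 18 pairs over 0.1). With the replicate block, 6 members were higher and 5 lower with insulin in H1047R cells, and no member count moved. SNHG22 averaged 1.42 counts per library and SNHG21 9.83, and their standard errors were the widest of the members. Overlapping genes limit SNHG14, DANCR, CYTOR, SNHG3, SNHG4, SNHG5, SNHG20 and SNHG21.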
